A study of Homo sapiens with 16 samples.

Results

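The genes described here are 10 of the 58735 in the deposited count tables, chosen by symbol. They are the 5 NF-kB subunit genes NFKB1, NFKB2, REL, RELA and RELB, the regulator genes NFKBIA, NFKBIE, NFKBIZ and TNFAIP3, and the adhesion gene ICAM1. Poly-A RNA was sequenced from 2 established human cell lines of triple-negative breast cancer, SUM159PT and MDA-MB-231. In each line, sgYES1 cells had received by lipofection a guide RNA against YES1, which encodes a kinase of the Src family, and sgNTS cells a non-targeting guide. All 4 groups carried the genotype label WT, were harvested at 48 h and had 4 libraries, 16 in all. The submitters call the replicates technical. A p-value here therefore reflects variation among these libraries, which need not include that among separate cultures. The sources used here do not give the protein that cuts or binds at the guided site.

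NF-kB proteins are dimeric transcription factors. In resting cells they are held in the cytoplasm by IkB proteins, and signals from receptors for tumour necrosis factor, interleukin-1 or microbial products lead to IkB destruction and entry of the dimers into the nucleus. Many NF-kB targets encode regulators of NF-kB itself, among them NFKBIA and TNFAIP3, so the pathway feeds back on its own activity, and in breast cancer lines of this subtype it is known for driving cytokine and adhesion genes. Transcript levels do not report where the proteins are.

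Library totals were 17156454 to 25124164 counts in MDA-MB-231 sgYES1 cells and 17749566 to 24577063 in sgNTS cells of that line. In SUM159PT they were 15155573 to 20524384 counts in sgYES1 cells and 14352042 to 20884267 in sgNTS cells. YES1 had 41.6 to 44.3 CPM (counts scaled to the size of the library) in MDA-MB-231 sgYES1 cells against 107 to 113 in sgNTS cells, and 38.3 to 40.2 CPM in SUM159PT sgYES1 cells against 89.4 to 97.9 in sgNTS cells, so YES1 transcript was reduced and still present. Of 12 breast line markers, PGR, the progesterone receptor gene, had 0 counts in all groups, and ESR1, the estrogen receptor gene, was too low to be tested in either line. ERBB2, the HER2 receptor gene, had 94.1 to 104 CPM in MDA-MB-231 sgYES1 cells against 107 to 112 in sgNTS cells, and 91.1 to 101 CPM in SUM159PT sgYES1 cells against 103 to 114 in sgNTS cells. Of these markers, 0 of 7 tested were called higher and 5 lower in MDA-MB-231 sgYES1 cells (ERBB2, EPCAM, KRT8, KRT18 and VIM), and 3 of 8 higher and 3 lower in SUM159PT. Among all genes tested, the shares called higher and lower were 20.8% and 22.1% in MDA-MB-231, and 19.6% and 19.7% in SUM159PT. Leukocyte markers (12 genes) summed to 11.9 to 13.6 CPM in MDA-MB-231 sgYES1 cells against 9.03 to 10.1 in sgNTS cells, and to 1.88 to 2.31 CPM in SUM159PT sgYES1 cells against 0.778 to 1.36 in sgNTS cells. CD3E, MS4A1 and FCGR3A had 0 counts in all groups. PTPRC, too low to be tested, averaged 0.063 CPM in MDA-MB-231 sgYES1 cells and 0.032 in sgNTS cells, and 0.22 and 0.23 CPM in SUM159PT. LYZ, also too low, averaged 0.093 CPM in MDA-MB-231 sgYES1 cells against 0.47 in sgNTS cells. CSF1R made up most of the sum in MDA-MB-231. In that line 3 of the 12 leukocyte genes were high enough to be tested. All 3 were called higher in sgYES1 cells, as were 20.8% of all genes tested there. CD14 had 1.61 to 2.32 CPM in sgYES1 cells against 0.583 to 1.07 in sgNTS cells. CSF1R had 8.09 to 9.81 CPM against 7.21 to 7.97, and ITGAM 0.826 to 1.51 CPM against 0.125 to 0.557. ITGAM passed the filter on low counts through its sgYES1 libraries, which favours a call of higher. Endothelial markers (7 genes, KDR the highest) summed to 9.44 to 11.6 CPM in MDA-MB-231 sgYES1 cells against 6.34 to 7.35 in sgNTS cells, and to 5.84 to 11.1 CPM in SUM159PT sgYES1 cells against 7.61 to 8.53 in sgNTS cells. The leukocyte sums were thus higher in sgYES1 cells of both lines and the endothelial sums in those of MDA-MB-231, and their part in the results was not tested.

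Of the 10 genes, 8 had a start-site window in RefSeq (GRCh38.p14, 250 bases before to 50 after the start), with 13 windows in all; RELB and NFKBIE had none. The kappaB consensus, the sequence NF-kB dimers bind, was searched on both strands. It was found in at least 1 window of 6 genes (NFKB1, NFKB2, REL, NFKBIA, NFKBIZ and TNFAIP3), in 8 of the 13 windows, against 11.3% of 35114 windows and 13.3% of 27303 genes with a window. RELA and ICAM1 had no match to the full consensus. The shorter string GGAAATTCC, searched on either strand and chosen after the sequences were seen, was found in 5 of the genes (NFKB1, REL, NFKBIA, NFKBIZ and ICAM1), against 0.56% of all genes with a window; it lies within the consensus match in all of these but ICAM1. A match is a string in the DNA and not evidence of binding. The TATA box string (TATAAA) was also searched on either strand. It was found in NFKBIZ and ICAM1, in NFKBIA only as the reverse complement TTTATA, and in 14% of all genes with a window. The AP-1 string TGANTCA was found in none of the 8 genes and in 9.37% of all.

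Promoter windows are shown for 3 genes that rose with sgYES1 in both lines and carry different arrangements of these strings, for NFKB2, and for NFKB1, whose transcript did not pass the test in either line. Capitals mark matches to the kappaB consensus and, in ICAM1, to GGAAATTCC. Positions are counted from the start site, with negative values upstream. In TNFAIP3 a pair of matches ran from -67 to -58 and from -55 to -46, in NFKBIA a single match ran from -81 to -72, and in ICAM1 the shorter string ran from -186 to -178.
TNFAIP3 (chr6:137867009-137867308, plus strand): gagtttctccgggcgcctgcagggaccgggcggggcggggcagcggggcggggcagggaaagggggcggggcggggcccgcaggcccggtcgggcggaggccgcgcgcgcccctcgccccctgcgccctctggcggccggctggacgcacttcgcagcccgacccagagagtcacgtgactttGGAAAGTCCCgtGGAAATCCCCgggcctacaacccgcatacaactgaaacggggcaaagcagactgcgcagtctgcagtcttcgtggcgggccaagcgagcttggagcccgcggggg
NFKBIA (chr14:35404700-35404999, minus strand): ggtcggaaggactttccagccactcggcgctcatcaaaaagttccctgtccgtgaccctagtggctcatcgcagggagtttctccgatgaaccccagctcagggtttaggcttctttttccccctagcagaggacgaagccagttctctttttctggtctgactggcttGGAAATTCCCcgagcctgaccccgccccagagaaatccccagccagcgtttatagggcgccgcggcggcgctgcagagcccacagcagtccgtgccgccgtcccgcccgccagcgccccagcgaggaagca
ICAM1 (chr19:10270870-10271169, plus strand): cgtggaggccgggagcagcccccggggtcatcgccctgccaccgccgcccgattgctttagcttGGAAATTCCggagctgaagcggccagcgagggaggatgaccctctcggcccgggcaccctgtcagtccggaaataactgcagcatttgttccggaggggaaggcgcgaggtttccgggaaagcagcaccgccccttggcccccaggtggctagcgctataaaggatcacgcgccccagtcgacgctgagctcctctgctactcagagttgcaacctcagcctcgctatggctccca
NFKB2, window 3 (chr10:102395455-102395754, plus strand): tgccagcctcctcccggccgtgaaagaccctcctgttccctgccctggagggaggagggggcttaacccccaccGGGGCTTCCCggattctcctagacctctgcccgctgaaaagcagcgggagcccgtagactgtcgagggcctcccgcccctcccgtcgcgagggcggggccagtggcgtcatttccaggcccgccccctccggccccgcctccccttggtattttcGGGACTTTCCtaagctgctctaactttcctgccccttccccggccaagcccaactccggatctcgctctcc
NFKB1, window 1 (chr4:102501109-102501408, plus strand): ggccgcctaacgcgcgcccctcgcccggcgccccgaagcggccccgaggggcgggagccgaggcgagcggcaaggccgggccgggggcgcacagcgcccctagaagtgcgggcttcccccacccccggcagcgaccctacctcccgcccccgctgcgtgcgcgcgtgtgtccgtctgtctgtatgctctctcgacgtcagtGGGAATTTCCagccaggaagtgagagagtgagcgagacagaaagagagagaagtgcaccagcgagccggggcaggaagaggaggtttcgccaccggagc
The match in the REL window, GGGAAATTCCC, ran from -47 to -37, and that in window 1 of NFKBIZ, GGGAATTTCC, from -223 to -214. NFKB1 carries the same 10 bases as NFKBIZ, from -49 to -40, and NFKBIZ passed the test in both lines whereas NFKB1 did not.

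In MDA-MB-231, 8 of the 10 genes were higher in sgYES1 than in sgNTS cells and 0 were lower (edgeR quasi-likelihood test, Benjamini-Hochberg adjusted p under 0.05 over all genes). Of all 15427 genes tested, 20.8% were called higher and 22.1% lower. The median log2 fold change of the 10 genes was 0.45, against 0.01 for all genes tested, and for 8 genes every sgYES1 library lay above every sgNTS library, as it did for 18.8% of all genes tested. In SUM159PT 8 of the 10 were again higher and 0 lower, where 19.6% of 14479 genes were called higher and 19.7% lower. The median there was 0.43, against -0.01 for all genes tested, and 7 genes had groups that did not overlap, against 17.7% of all genes. The 8 genes were the same in both lines, and the genes not called in either line were NFKB1 and REL. DESeq2 called 8 genes higher in MDA-MB-231 and 7 in SUM159PT, where it did not call NFKBIA. In SUM159PT sgNTS cells, replicate 2 lay below its group mean for all 10 genes (median -0.21 on the log2 scale) and replicate 3 above it for all 10 (median 0.18). With both left out, an alternative chosen after the data were seen, the same 8 genes were called higher in SUM159PT.

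**Figure D1:**
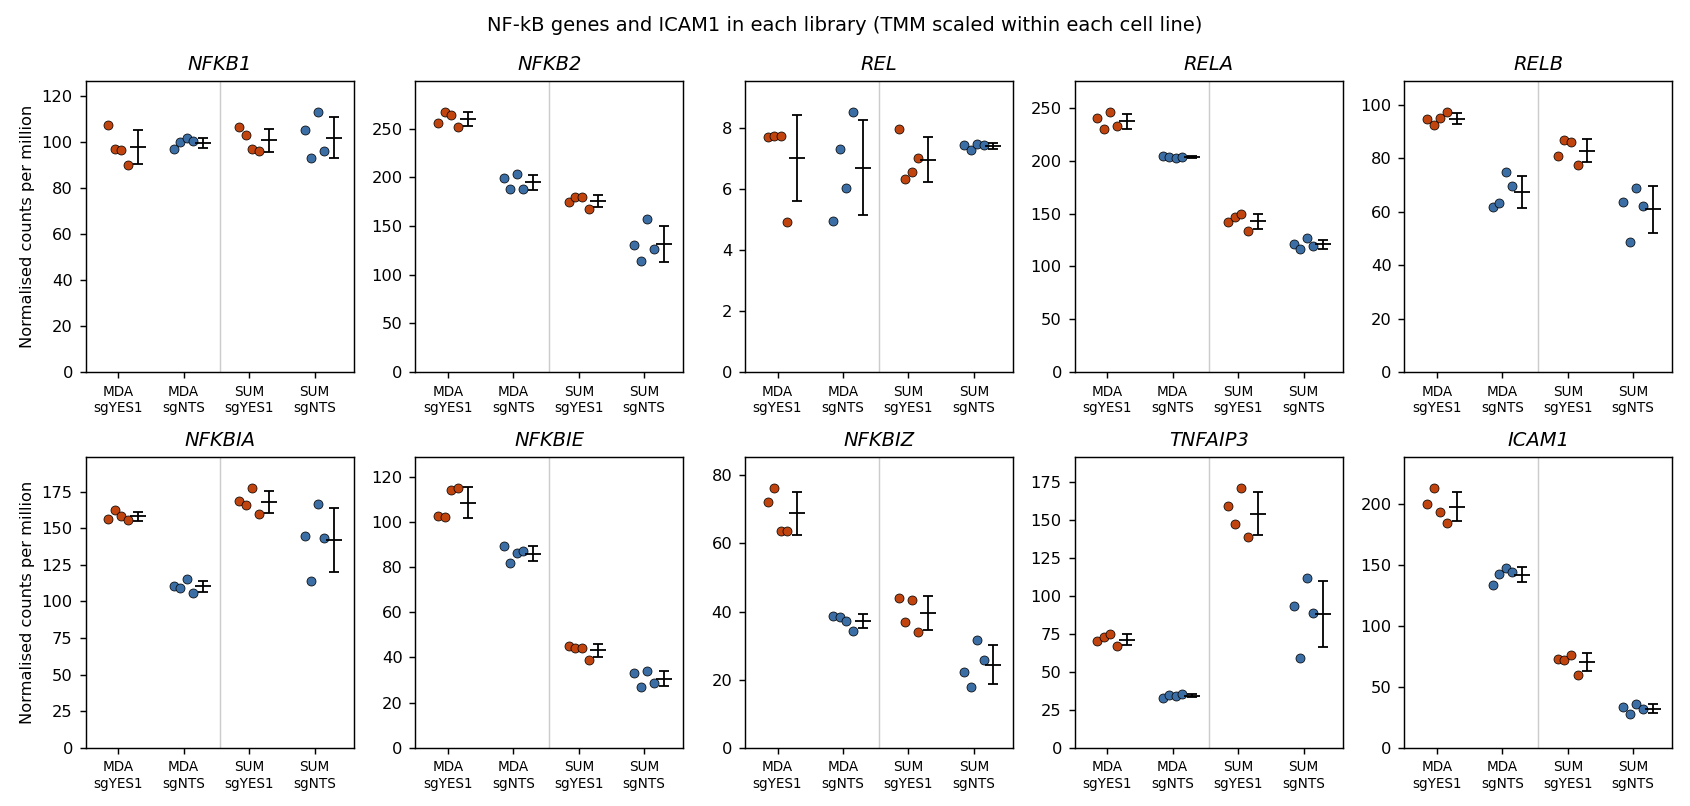
Normalised CPM of each gene in every library (dots; TMM-scaled within each line), with the mean and SD of 4 libraries beside them; sgYES1 in red, sgNTS in blue, MDA-MB-231 left of the grey line and SUM159PT right. The red dots lie above the blue dots of the same line for 8 genes (MDA-MB-231) or 7 genes (SUM159PT); red and blue overlap for NFKB1 and REL in both lines.

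Among the subunits, NFKB2 and RELB rose by about the same amount in both lines, RELA rose less, and NFKB1 and REL did not pass the test. NFKB2 (ENSG00000077150, chr10:102394110-102402529 in hg38) encodes a precursor that keeps RELB inactive until it is processed in the non-canonical pathway. In MDA-MB-231 it had 256, 267, 264 and 252 CPM in sgYES1 libraries against 199, 188, 204 and 189 in sgNTS libraries (log2 fold change 0.42, SE 0.04, adjusted p = 8.84e-07). In SUM159PT it had 175, 180.1, 179.9 and 167 CPM in sgYES1 libraries against 130.2, 114, 157 and 126 in sgNTS libraries (log2 fold change 0.42, SE 0.07, adjusted p = 3.21e-05). No sgYES1 library of either line fell within the range of its sgNTS group.

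RELB (ENSG00000104856, chr19:45001430-45038198) encodes the partner of the processed NFKB2 product. It had 94.6, 92.4, 94.9 and 97.2 CPM in MDA-MB-231 sgYES1 libraries against 61.7, 63.1, 74.7 and 69.5 in sgNTS libraries (log2 fold change 0.50, SE 0.05, adjusted p = 5.5e-06). SUM159PT had 81.0, 86.6, 86.2 and 77.4 CPM in sgYES1 libraries against 63.8, 48.6, 69.0 and 62.2 in sgNTS libraries (log2 fold change 0.44, SE 0.07, adjusted p = 6.52e-05). The sgNTS libraries were the more scattered in SUM159PT, with replicate 2 the lowest, and still lay below every sgYES1 library.

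RELA (ENSG00000173039, chr11:65653596-65663094) encodes the main transactivating subunit of the canonical pathway. In MDA-MB-231 it had 240.4, 229.9, 246 and 233 CPM in sgYES1 libraries against 204, 204, 202 and 204 in sgNTS libraries (1.17-fold higher, log2 fold change 0.22, SE 0.03, adjusted p = 9.8e-05). The SUM159PT values were 142, 146, 149.6 and 133 CPM in sgYES1 libraries against 121, 117, 127 and 119 in sgNTS libraries (1.18-fold higher, log2 fold change 0.24, SE 0.05, adjusted p = 0.000343). The groups did not overlap in either line.

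NFKB1 (ENSG00000109320, chr4:102501329-102617302) encodes the precursor of RELA's usual partner. It had 108, 97.1, 96.5 and 90.3 CPM in MDA-MB-231 sgYES1 libraries against 96.9, 99.99, 102 and 101 in sgNTS libraries (log2 fold change -0.03, 95% interval -0.13 to 0.07, edgeR adjusted p = 0.655). In SUM159PT it had 107, 103, 97.2 and 96.4 CPM in sgYES1 libraries against 106, 93.4, 113 and 96.4 in sgNTS libraries (log2 fold change -0.02, interval -0.13 to 0.10, edgeR adjusted p = 0.856). These intervals lie below the changes of NFKB2 and RELB in the same libraries. REL (ENSG00000162924, chr2:60881521-60931610), the subunit best known from lymphoid cells, had only 96 to 199 counts per library. It had 4.92 to 7.73 CPM in MDA-MB-231 sgYES1 libraries against 4.95 to 8.52 in sgNTS libraries, and 6.33 to 7.97 CPM in SUM159PT sgYES1 libraries against 7.27 to 7.47 in sgNTS libraries, with overlap in both lines. Its log2 fold change was 0.05 (95% interval -0.32 to 0.42) in MDA-MB-231 and -0.08 (interval -0.31 to 0.15) in SUM159PT, and the first of these intervals includes a change of the size of RELA's.

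The makeup of the subunit transcripts moved with the guide. As a share of the summed TPM (transcript levels, as counts per gene length scaled to the library) of the 5 subunit genes, NFKB2 made up 39.0% ± 0.901 in MDA-MB-231 sgYES1 cells and 36.4% ± 1.00 in sgNTS cells, and RELB 21.0% ± 0.670 and 18.5% ± 1.22 (SD, n = 4 each). NFKB1 made up 10.5% ± 0.679 in sgYES1 cells and 13.4% ± 0.284 in sgNTS cells. In SUM159PT, NFKB2 made up 35.9% ± 0.234 in sgYES1 cells and 33.1% ± 1.37 in sgNTS cells, RELB 25.0% ± 0.487 and 22.6% ± 1.47, and NFKB1 14.8% ± 0.703 and 18.5% ± 0.579. RELA made up 29.2% ± 0.569 in MDA-MB-231 sgYES1 cells and 31.2% ± 0.922 in sgNTS cells, a smaller share in every sgYES1 library although its CPM was higher, and 23.9% ± 0.374 in SUM159PT sgYES1 cells and 25.2% ± 1.65 in sgNTS cells, where libraries overlapped. The number of NFKB2 transcripts for each NFKB1 transcript was 3.32 to 3.89 in MDA-MB-231 sgYES1 libraries against 2.61 to 2.87 in sgNTS libraries, and 2.29 to 2.58 in SUM159PT sgYES1 libraries against 1.70 to 1.94 in sgNTS libraries. The ranges did not overlap in either line.

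**Figure D2:**
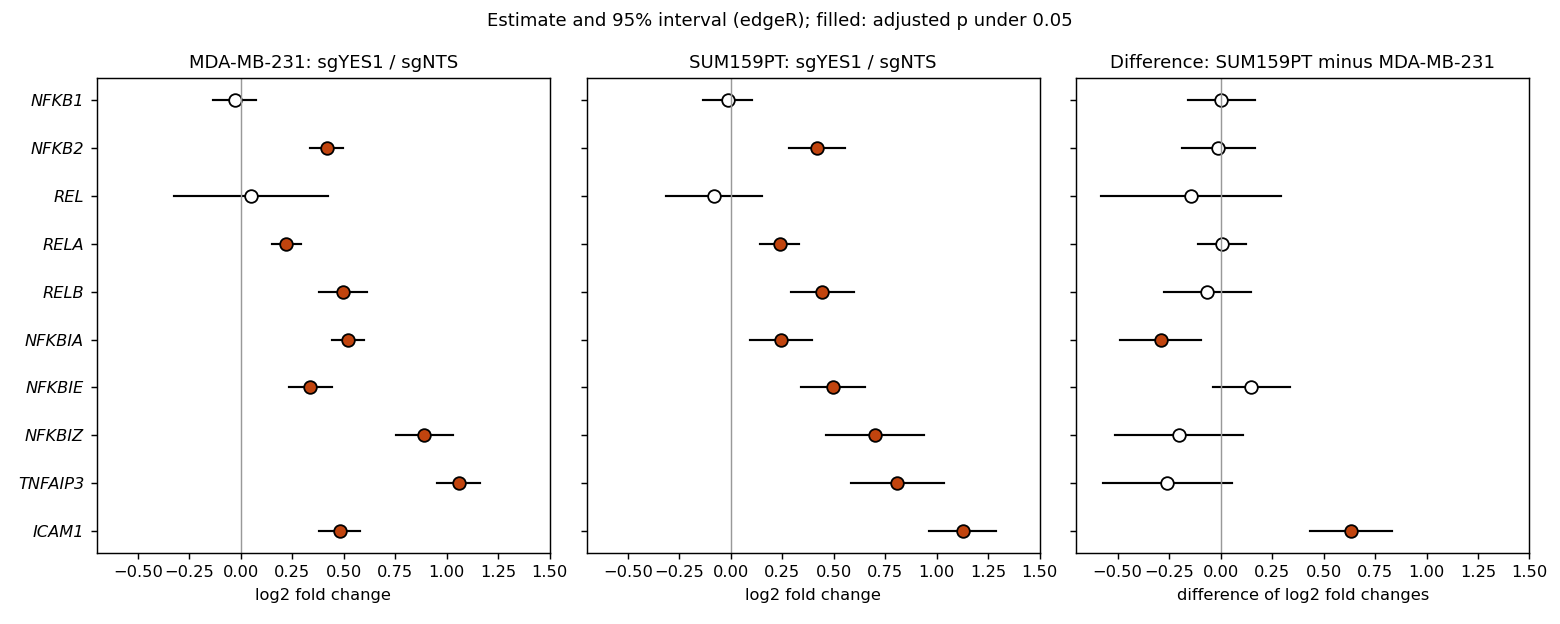
Log2 fold change of sgYES1 over sgNTS in each line and the difference between lines (dots), with 95% intervals (lines) from edgeR; filled dots have an adjusted p under 0.05. NFKB1 and REL lie at 0 within their intervals in both lines, TNFAIP3 has the highest estimate in MDA-MB-231 and ICAM1 in SUM159PT, and ICAM1 and NFKBIA are the filled dots of the difference.

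The 4 regulator genes rose in both lines, with TNFAIP3 and NFKBIZ above NFKBIA and NFKBIE. TNFAIP3 (ENSG00000118503, chr6:137867188-137883312) encodes a ubiquitin-editing enzyme that shuts off signalling from the tumour necrosis factor and Toll-like receptors. It had 70.5, 72.9, 74.7 and 66.7 CPM in MDA-MB-231 sgYES1 libraries against 32.8, 34.7, 34.1 and 35.1 in sgNTS libraries, 2.08-fold higher (log2 fold change 1.06, SE 0.05, adjusted p = 1.23e-09). SUM159PT had 159, 147, 171 and 139 CPM in sgYES1 libraries against 93.1, 59.1, 112 and 88.4 in sgNTS libraries, 1.75-fold higher (log2 fold change 0.81, SE 0.11, adjusted p = 5.82e-06). The highest sgNTS library of SUM159PT, replicate 3, was below the lowest sgYES1 library. The antisense gene AL357060.1 overlaps TNFAIP3 and had 19.9 counts per library on average in MDA-MB-231, with a log2 fold change of 1.00 (adjusted p = 0.00295). Whether counting used strand is not stated, so those few counts cannot be told apart from TNFAIP3 reads.

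NFKBIZ (ENSG00000144802, chr3:101827991-101861022) encodes a nuclear IkB protein that acts with NF-kB on a subset of its targets, IL6 among them. It had 72.1, 76.3, 63.7 and 63.5 CPM in MDA-MB-231 sgYES1 libraries against 38.6, 38.5, 37.1 and 34.2 in sgNTS libraries, 1.85-fold higher (log2 fold change 0.89, SE 0.06, adjusted p = 1.27e-07). In SUM159PT it had 43.9, 36.9, 43.3 and 33.9 CPM in sgYES1 libraries against 22.2, 17.96, 31.6 and 25.8 in sgNTS libraries, 1.62-fold higher (log2 fold change 0.70, SE 0.11, adjusted p = 5.27e-05). The groups came close in SUM159PT, where the lowest sgYES1 library was 33.9 CPM and the highest sgNTS library 31.6. NXPE3, which ends 599 bases from NFKBIZ on the same strand, moved the other way in MDA-MB-231 (log2 fold change -0.20, adjusted p = 0.00635).

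NFKBIA (ENSG00000100906, chr14:35401511-35404749) encodes IkB-alpha, the inhibitor that is destroyed and then resynthesised in each round of canonical signalling. In MDA-MB-231 it had 156, 162, 158 and 156 CPM in sgYES1 libraries against 111, 109, 115 and 106 in sgNTS libraries, 1.43-fold higher (log2 fold change 0.52, SE 0.04, adjusted p = 9.23e-08). The SUM159PT values were 169, 166, 178 and 159.7 CPM in sgYES1 libraries against 145, 114, 167 and 143 in sgNTS libraries, 1.18-fold higher (log2 fold change 0.24, SE 0.07, adjusted p = 0.0106). Here the groups overlapped, since sgNTS replicate 3 lay above sgYES1 replicates 2 and 4. The call in SUM159PT was not made by DESeq2 (adjusted p = 0.0795), and without sgNTS replicate 2 the log2 fold change was 0.15 (edgeR adjusted p = 0.0286). With sgNTS replicates 2 and 3 both left out it was 0.22 (edgeR adjusted p = 0.00458).

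NFKBIE (ENSG00000146232, chr6:44258166-44265788) encodes IkB-epsilon, a cytoplasmic inhibitor of RELA and REL dimers. It had 103, 102, 114 and 115 CPM in MDA-MB-231 sgYES1 libraries against 89.3, 81.7, 86.1 and 87.2 in sgNTS libraries (log2 fold change 0.34, SE 0.05, adjusted p = 6.84e-05). In SUM159PT it had 45.1, 44.4, 44.4 and 38.8 CPM in sgYES1 libraries against 33.2, 26.7, 33.8 and 28.8 in sgNTS libraries (log2 fold change 0.50, SE 0.07, adjusted p = 1.85e-05). No libraries overlapped in either line. The next gene, SLC35B2, 276 bases away on the same strand, was lower in MDA-MB-231 (-0.12 on the log2 scale, adjusted p = 0.0236), whereas SUM159PT cells had more of it (0.23, adjusted p = 0.00030).

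Set against RELA transcripts, the regulators were not all in the same proportion. The number of TNFAIP3 transcripts for each RELA transcript, as a ratio of TPM, was 0.310 to 0.343 in MDA-MB-231 sgYES1 libraries against 0.174 to 0.186 in sgNTS libraries, and 1.08 to 1.24 in SUM159PT sgYES1 libraries against 0.548 to 0.952 in sgNTS libraries. For NFKBIA the ratio was 1.48 to 1.63 in MDA-MB-231 sgYES1 libraries against 1.19 to 1.31 in sgNTS libraries. In SUM159PT the NFKBIA ratio was 2.60 to 2.76 in sgYES1 libraries, inside the range of 2.24 to 3.02 in sgNTS libraries. The groups did not overlap in MDA-MB-231 for both ratios, and in SUM159PT for the TNFAIP3 ratio.

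ICAM1 (ENSG00000090339, chr19:10270835-10286615) encodes a surface protein that leukocyte integrins bind, and its transcription is a standard readout of NF-kB activity in epithelial and endothelial cells. It rose in both lines, and by more in SUM159PT. In MDA-MB-231 it had 199.7, 213, 194 and 184 CPM in sgYES1 libraries against 133, 143, 147 and 144 in sgNTS libraries, 1.39-fold higher (log2 fold change 0.48, SE 0.05, adjusted p = 1.83e-06). SUM159PT had 73.1, 72.2, 75.6 and 59.3 CPM in sgYES1 libraries against 33.2, 27.5, 35.6 and 32.1 in sgNTS libraries, 2.18-fold higher (log2 fold change 1.13, SE 0.08, adjusted p = 5.59e-10). The lowest sgYES1 library of SUM159PT, replicate 4, was still well above the highest sgNTS library. Both antisense genes that overlap ICAM1 averaged under 1 count per library, and ICAM4, which starts 352 bases away, had 0 counts in every library.

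The difference between lines was tested over all 16 libraries as the sgYES1 effect of SUM159PT less that of MDA-MB-231. Of the 10 genes, 1 had a higher effect in SUM159PT (ICAM1) and 1 a lower effect (NFKBIA), where 12.7% of 16640 genes were called higher and 11.9% lower. For ICAM1 the difference was 0.63 on the log2 scale (SE 0.10, 95% interval 0.44 to 0.83, edgeR adjusted p = 2.72e-05), with a range of 0.61 to 0.72 over 23 alternatives. For NFKBIA it was -0.29 (SE 0.10, interval -0.49 to -0.09, edgeR adjusted p = 0.0273). That call was lost when any of 11 single libraries was left out: MDA-MB-231 sgYES1 replicate 2 or 4, MDA-MB-231 sgNTS replicate 2, 3 or 4, SUM159PT sgYES1 replicate 1, 2 or 4, or SUM159PT sgNTS replicate 1, 3 or 4, with edgeR adjusted p of 0.0514 to 0.157 and the smallest difference, -0.17, without SUM159PT sgNTS replicate 3. TNFAIP3 was not called (difference -0.26, interval -0.57 to 0.05, edgeR adjusted p = 0.229); it was called without SUM159PT sgNTS replicate 2 (-0.37, edgeR adjusted p = 0.00598). For NFKB2 and RELA the intervals of the difference were -0.19 to 0.17 and -0.11 to 0.12.

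The lines also differed in cells given the non-targeting guide. Each line had its own culture medium and count table, so a difference between lines cannot be told apart from these. In sgNTS cells, 2 of the 10 genes were higher in SUM159PT than in MDA-MB-231 and 5 were lower, where 40.5% of 16640 genes were called higher and 41.3% lower. ICAM1 had 30.5 ± 3.31 TPM in SUM159PT and 138 ± 12.2 TPM in MDA-MB-231 (SD, n = 4 each), a log2 fold change of -2.11 (SE 0.07, edgeR adjusted p = 1.78e-19). TNFAIP3 went the other way, with 61.4 ± 15.3 TPM in SUM159PT and 24.5 ± 1.97 TPM in MDA-MB-231 (log2 fold change 1.40, SE 0.11, edgeR adjusted p = 1.45e-11). NFKBIE had 41.8 ± 4.87 TPM in SUM159PT and 121 ± 8.24 TPM in MDA-MB-231 (log2 fold change -1.46, SE 0.07, edgeR adjusted p = 7.79e-17). NFKBIA was also higher in SUM159PT (log2 fold change 0.40), and RELA (-0.71), NFKBIZ (-0.57) and NFKB2 (-0.53) were lower. NFKB1, REL and RELB were not called (0.07, 0.18 and -0.11). The ICAM1 level of SUM159PT sgYES1 cells, 67.4 ± 7.42 TPM, remained below that of MDA-MB-231 sgNTS cells (138 ± 12.2 TPM; n = 4 each), with no overlap of libraries.

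Within each group, levels per gene length put NFKBIA first and NFKB2 second. In MDA-MB-231 sgYES1 cells the order was NFKBIA (239.6 TPM), NFKB2 (208), ICAM1 (192), RELA (156), NFKBIE (151), RELB (112), NFKB1 (56.4), TNFAIP3 (50.7), NFKBIZ (42.0) and REL (1.92). Ranges over the libraries overlapped between NFKB2 and ICAM1, RELA and NFKBIE, and NFKB1 and TNFAIP3. Within each library, though, NFKB2 was above ICAM1 and NFKB1 above TNFAIP3. In MDA-MB-231 sgNTS cells the order was NFKBIA (168 TPM), NFKB2 (157), ICAM1 (138), RELA (135), NFKBIE (121), RELB (80.2), NFKB1 (57.7), TNFAIP3 (24.5), NFKBIZ (22.7) and REL (1.85), and each neighbour among the first 5 overlapped, as did TNFAIP3 and NFKBIZ. These overlaps too are of ranges over the libraries. Within each sgNTS library of this line, NFKBIA was above NFKB2, NFKB2 above ICAM1 and RELA above NFKBIE. NFKBIA was thus above NFKB2 in every library of both guide groups.

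In SUM159PT sgYES1 cells the order was NFKBIA (252 TPM), NFKB2 (139.7), TNFAIP3 (109), RELB (97.3), RELA (93.2), ICAM1 (67.4), NFKBIE (59.7), NFKB1 (57.5), NFKBIZ (23.9) and REL (1.89). Ranges over the libraries overlapped among TNFAIP3, RELB and RELA and among ICAM1, NFKBIE and NFKB1. Within each library, though, TNFAIP3 was above RELB and RELB above RELA. In SUM159PT sgNTS cells it was NFKBIA (211 TPM), NFKB2 (103), RELA (78.1), RELB (70.7), TNFAIP3 (61.4), NFKB1 (57.5), NFKBIE (41.8), ICAM1 (30.5), NFKBIZ (14.6) and REL (1.98), with overlap between each neighbour from RELA to NFKB1. These overlaps are again of ranges, and within each sgNTS library RELA was above RELB and RELB above TNFAIP3. ICAM1 stood above NFKBIE within each sgYES1 library and below all NFKBIE libraries in sgNTS cells.

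**Figure D3:**
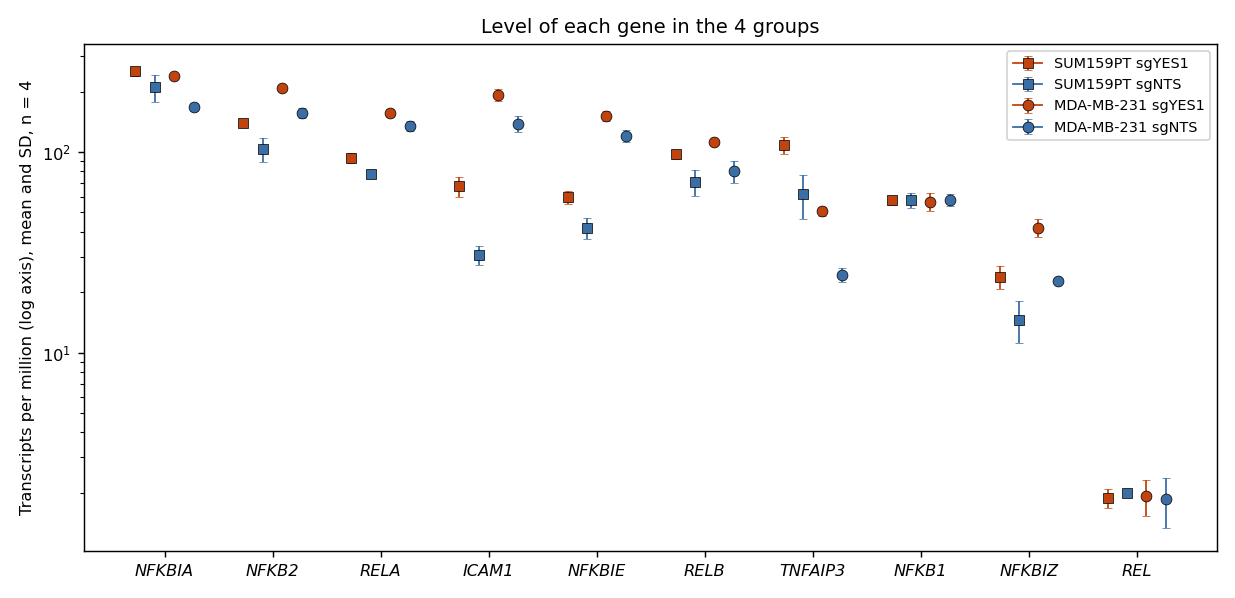
Mean level of each gene in the 4 groups in TPM on a log axis, with the SD of 4 libraries; squares are SUM159PT, circles MDA-MB-231, red sgYES1 and blue sgNTS, and genes run from the highest to the lowest summed mean. ICAM1 and NFKBIE are lower in SUM159PT and TNFAIP3 higher, NFKB1 is level in all groups, and REL is near 2 TPM throughout.

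Other genes of the pathway were taken from lists written with earlier results of these data known, so their counts are a description. Each count below is to be read against the share of all genes tested. That share was 20.8% called higher and 22.1% lower in MDA-MB-231, and 19.6% higher and 19.7% lower in SUM159PT. Of the remaining IkB family genes, 3 of 4 were higher and 0 lower in MDA-MB-231 sgYES1 cells, and 2 of 4 higher and 0 lower in SUM159PT. NFKBIB, which encodes IkB-beta, rose in both lines (57.1 to 66.3 against 46.9 to 51.4 CPM in MDA-MB-231 and 65.0 to 71.4 against 53.4 to 60.5 in SUM159PT, sgYES1 against sgNTS). NFKBID, a nuclear IkB protein gene, rose in SUM159PT (9.70 to 11.4 CPM in sgYES1 against 5.19 to 7.40 in sgNTS libraries) and had 5.77 to 7.27 CPM in MDA-MB-231 sgYES1 against 5.34 to 6.49 in sgNTS libraries, not called. BCL3 and NFKBIL1 rose in MDA-MB-231 (log2 fold changes 0.19 and 0.43) and were not called in SUM159PT (-0.10 and -0.09). The other genes that the authors' table assigns to the Rel-homology family, NFATC1 to NFATC4 and NFAT5 with NFATC1 tested in MDA-MB-231 only, held no call in either line.

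Of 15 ligand genes, 8 were tested in MDA-MB-231, with 6 higher and 2 lower, and 4 in SUM159PT, with 2 higher and 0 lower. LTA, among those called higher in MDA-MB-231, had 0.566 to 1.46 CPM in sgYES1 libraries against 0.257 to 0.583 in sgNTS libraries. It passed the filter on low counts through its sgYES1 libraries, which favours a call of higher. IL1A, an interleukin-1 that activates NF-kB, had 21.8 to 29.1 CPM in MDA-MB-231 sgYES1 libraries against 2.81 to 3.45 in sgNTS libraries, and 4.04 to 8.40 CPM in SUM159PT sgYES1 libraries against 1.68 to 5.21 in sgNTS libraries; it was called higher in both lines. IL1B had 9.14 to 11.6 CPM in MDA-MB-231 sgYES1 libraries against 1.11 to 2.01 in sgNTS libraries, and was not called in SUM159PT (log2 fold change 0.02). LTB, a ligand of the non-canonical pathway, had 3.36 to 3.87 CPM in MDA-MB-231 sgYES1 libraries against 0.796 to 1.43 in sgNTS libraries and was too low to be tested within SUM159PT. TNFSF12 fell in MDA-MB-231 (log2 fold change -0.49) and was not called in SUM159PT (-0.28).

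Of 19 receptor genes, 18 were tested in MDA-MB-231 (7 higher, 1 lower; 0 lower without sgYES1 replicate 3) and 16 in SUM159PT (5 higher, 1 lower; 3 higher without sgNTS replicates 2 and 3). TLR2, a receptor for bacterial lipoproteins, had 8.91 to 13.2 CPM in SUM159PT sgYES1 libraries against 4.02 to 6.34 in sgNTS libraries, and 10.1 to 11.4 CPM in MDA-MB-231 sgYES1 libraries against 8.49 to 10.1 in sgNTS libraries, and was called higher in both. LTBR, the receptor of LTB, and TNFRSF12A, the receptor of TNFSF12, were called higher in both lines (log2 fold changes 0.12 and 0.38 in MDA-MB-231, 0.27 and 0.15 in SUM159PT). TNFRSF10A was called higher in SUM159PT (0.31) and not in MDA-MB-231 (-0.03).

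All 33 adaptor and kinase genes were tested, with 12 higher and 9 lower in MDA-MB-231 and 13 higher and 4 lower in SUM159PT. TRAF1, an adaptor that is itself an NF-kB target, had 112 to 127 CPM in MDA-MB-231 sgYES1 libraries against 60.7 to 67.6 in sgNTS libraries, and 7.05 to 7.64 CPM in SUM159PT sgYES1 libraries against 0.661 to 1.69 in sgNTS libraries. IRAK2, a kinase of interleukin-1 signalling, rose in both lines (log2 fold changes 0.58 and 0.55 in MDA-MB-231 and SUM159PT). IRAK1 fell in MDA-MB-231 (-0.37) and RBCK1, part of the linear ubiquitin ligase, rose there (0.50), and neither was called in SUM159PT (-0.04 and -0.06).

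Of 17 negative regulators, 16 were tested in MDA-MB-231 (4 higher, 4 lower) and 15 in SUM159PT (5 higher, 1 lower). ZC3H12A, which encodes a ribonuclease that degrades cytokine transcripts, had 90.2 to 111 CPM in MDA-MB-231 sgYES1 libraries against 28.3 to 32.8 in sgNTS libraries, and 89.0 to 109 CPM in SUM159PT sgYES1 libraries against 41.6 to 64.6 in sgNTS libraries. TNIP1 and TNIP3, which encode binding partners of the TNFAIP3 protein, were called higher in both lines (log2 fold changes 0.64 and 1.57 in MDA-MB-231, 0.20 and 1.61 in SUM159PT). N4BP1 fell in both (-0.35 and -0.24 in MDA-MB-231 and SUM159PT); it was the 1 gene of the list called lower in SUM159PT, where the count was 0 without sgNTS replicate 3 or without sgYES1 replicate 2. Without MDA-MB-231 sgNTS replicate 4, 7 of these genes were called higher in that line.

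Of 30 target genes, 28 were tested in MDA-MB-231, with 20 higher and 2 lower and a median log2 fold change of 0.50, and 23 in SUM159PT, with 9 higher and 2 lower and a median of 0.02. CCL20, among those called higher in MDA-MB-231, had 1.26 to 2.89 CPM in sgYES1 libraries against 0.166 to 0.517 in sgNTS libraries. It passed the filter on low counts through its sgYES1 libraries, which favours a call of higher. SOD2, mitochondrial superoxide dismutase, had 249.5 to 263 CPM in MDA-MB-231 sgYES1 libraries against 103 to 108 in sgNTS libraries, and 1349 to 1731 CPM in SUM159PT sgYES1 libraries against 640.0 to 979 in sgNTS libraries. IL6 had 66.5 to 82.0 CPM in MDA-MB-231 sgYES1 libraries against 12.8 to 13.3 in sgNTS libraries, and 11.1 to 18.9 CPM in SUM159PT sgYES1 libraries against 5.23 to 14.6 in sgNTS libraries, and was called higher in both. CXCL8, a neutrophil chemokine, rose in MDA-MB-231 (273 to 323 CPM in sgYES1 against 87.8 to 94.7 in sgNTS libraries) and overlapped in SUM159PT (93.0 to 137 against 49.9 to 144 CPM; log2 fold change 0.24, not called). CXCL1 rose in MDA-MB-231 (96.1 to 124 against 21.1 to 24.2 CPM), was almost absent from SUM159PT (0 to 0.0659 CPM in sgYES1 libraries and 0 in sgNTS libraries), and has near-identical paralogs that can share its reads. Of the 23 target genes tested within both lines, 13 had a lower sgYES1 effect in SUM159PT than in MDA-MB-231 and 2 a higher one. Of all 16640 genes, 11.9% were called lower and 12.7% higher. Most of these target genes thus went opposite to the direction of the ICAM1 difference. The number of target genes called lower in SUM159PT varied: it was 4 with no filter on low counts, 1 with scaling to library totals, 5 without sgNTS replicate 2 and 1 when sgNTS replicate 3, sgNTS replicate 4, sgYES1 replicate 2 or sgYES1 replicate 4 was left out.

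Of 17 adhesion genes beside ICAM1, 12 were tested in MDA-MB-231 (1 higher, 5 lower) and 8 in SUM159PT (3 higher, 3 lower). Of all genes tested, 20.8% were called higher and 22.1% lower in MDA-MB-231, and 19.6% and 19.7% in SUM159PT. The rise of ICAM1 was not matched by most of this short list. ITGAM, the 1 gene called higher in MDA-MB-231, passed the filter on low counts through its sgYES1 libraries, as did ITGB2, called higher in SUM159PT. That favours a call of higher. ALCAM, which encodes an adhesion molecule of the same superfamily, fell in both lines (245 to 260.0 CPM in sgYES1 against 299 to 349 in sgNTS libraries of MDA-MB-231, and 23.3 to 26.4 against 32.5 to 41.0 in SUM159PT). MSN, which encodes moesin, a linker of membrane proteins to actin, fell in MDA-MB-231 (log2 fold change -0.22) and rose in SUM159PT (0.19). EZR, for the related ezrin, fell in MDA-MB-231 (-0.22) and was not called in SUM159PT (-0.07). CD44, a hyaluronan receptor, rose in SUM159PT (0.27) and was not called in MDA-MB-231 (0.03).

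**Figure D4:**
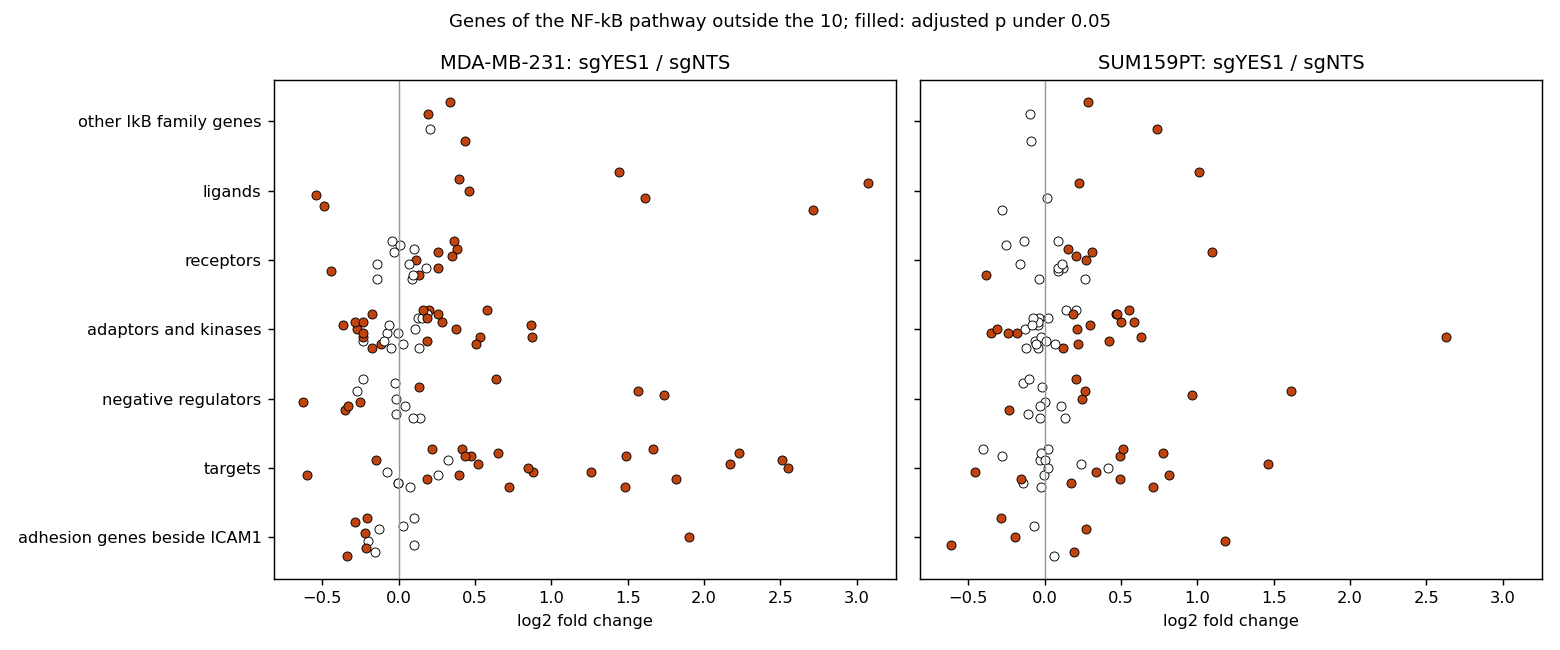
Log2 fold change of sgYES1 over sgNTS for the tested genes of each pathway list in MDA-MB-231 (left) and SUM159PT (right); each dot is a gene, filled where the edgeR adjusted p is under 0.05, and vertical offsets only separate the dots. In MDA-MB-231 20 of 28 target genes are filled on the right of 0, in SUM159PT 9 of 23, and the adhesion list lies mostly at or left of 0 in MDA-MB-231.

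The genes most like ICAM1, NFKBIA and RELB were found among 11532 protein-coding genes tested in both lines by the root mean square difference of log2 CPM, each gene centred on its mean over the 16 libraries; differences between the lines weigh heavily in this measure. The 5 genes closest to ICAM1 were ZC3HAV1 (0.223), GLMP (0.234), ADAP1 (0.248), MARCHF3 (0.25) and HLX (0.251). ZC3HAV1, a zinc finger antiviral protein gene, was called higher in both lines (log2 fold changes 0.41 in MDA-MB-231 and 1.09 in SUM159PT), whereas ADAP1 was called in SUM159PT (0.99) and not in MDA-MB-231 (0.04). Of the other genes described here, NFKBIE was the closest to ICAM1 (0.32) and TNFAIP3 the farthest (1.54). Closest to NFKBIA were SLC3A2 (0.0958), LRRC49 (0.109), GPANK1 (0.112), NFKBIB (0.113) and PDRG1 (0.114), so the gene of IkB-beta was among the nearest to that of IkB-alpha. SLC3A2, an amino acid transporter subunit gene, had log2 fold changes of 0.61 in MDA-MB-231 and 0.12 in SUM159PT, where it was not called. Among the genes closest to RELB were ZNF317 (0.113), DHX34 (0.119), VPS9D1 (0.123) and DOHH (0.129), each called higher in both lines, and NFKB2 was the nearest of the 10 genes described here (0.214).

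The nearest neighbours in the genome varied in how they moved. RELA's neighbour SIPA1 had log2 fold changes of -0.01 in MDA-MB-231 and 0.02 in SUM159PT, neither called, and GBF1 beside NFKB2 had -0.03, not called, and 0.15, called. CLASRP, 842 bases from RELB on the same strand, was called higher in MDA-MB-231 (0.27) and not in SUM159PT (0.03). MANBA, 13468 bases from NFKB1, was called higher in MDA-MB-231 (0.56), where NFKB1 was not, and not in SUM159PT (-0.12). PSD, on the opposite strand 88 bases from NFKB2, averaged 0.728 CPM in MDA-MB-231 and was called higher there (1.41). At so low a mean, PSD could have passed the filter on low counts mainly through its sgYES1 libraries, which favours a call of higher. In SUM159PT PSD was not called (0.46). MRPL4, beside ICAM1, was called higher by 0.16 in MDA-MB-231 and 0.15 in SUM159PT.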

How the data were processed

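The authors deposited raw counts per gene, 1 table per cell line, in which whole numbers give the reads assigned to each of 58735 genes. Per the submitters' processing notes, HISAT2 2.0.5, featureCounts 1.5.0-p3 and the build hg38 were used. The strand setting and the treatment of reads that map to several places are not given in the sources used here; per the labels' protocols, cDNA libraries could be directional or not.

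Counts were tested with edgeR 4.0.16 (quasi-likelihood F-test, 2-sided, TMM scaling, filterByExpr with a smallest count of 10 and a smallest total of 15) in R 4.3.3, on the 8 libraries of each line, and on all 16 for the difference between lines and for the sgNTS cells. P-values were adjusted over all genes after Benjamini and Hochberg, with calls made under 0.05. CPM were TMM-scaled within a line; TPM were computed from the authors' gene lengths. Intervals of 95% are confidence intervals of the log2 fold change or of its difference between lines. They were computed from the variation between libraries and are not the range of library values. Library totals were 14352042 to 25124164 counts, and the steps were tested on simulated data. Those counts were drawn independently, with the same variability set for every gene. The simulation therefore does not cover shifts that many genes share within a library.

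The genes and lists were chosen with earlier results of these data known. Text beyond the 10 genes names up to 4 genes per list by smallest p in either line (mean of at least 1 CPM), the 5 genes most like each of ICAM1, NFKBIA and RELB (1 result is not reported here), and genome neighbours. Alternatives were DESeq2 1.42.0, limma 3.58.1, other scaling, no filter, a fit of all 16 libraries together, a replicate block and leaving out each library. Replicate numbers did not pair the samples.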

Additional observations from a re-analysis of the deposited data

Results flagged for a closer look

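Of 40 sets of 4 libraries (10 genes in 4 groups), 3 held a library far from the other 3 by Dixon's criterion, which chance meets in about 1 set in 20. REL had 4.92 CPM in MDA-MB-231 sgYES1 replicate 4, below the other libraries of that group. REL had 7.27 CPM in SUM159PT sgNTS replicate 2, in a group whose values are otherwise almost equal. NFKBIE had 38.8 CPM in SUM159PT sgYES1 replicate 4, the lowest of its group and still above every sgNTS library.

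The sgYES1 effect differed between the lines for 2 of the 10 genes, where 12.7% of all genes were called higher and 11.9% lower, so the share is near that of all genes. On the log2 scale, SUM159PT less MDA-MB-231, the difference was 0.63 for ICAM1 (edgeR adjusted p = 2.72e-05) and -0.29 for NFKBIA (edgeR adjusted p = 0.0273). The NFKBIA call was lost when any of 11 single libraries was left out.

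Of the 28 pathway genes named from lists, 19 also differed between lines in the same edgeR test. These 28 were chosen by their smallest p in either line, which favours genes with an effect in one line. Over the 7 lists whole, 49 of 120 tested genes differed. Of all 16640 genes tested, 12.7% were called higher and 11.9% lower. The effect was higher in SUM159PT for the adaptor gene TRAF1 by 1.75, the receptor gene TLR2 by 0.82, the nuclear inhibitor gene NFKBID by 0.52, the moesin gene MSN by 0.40, TNFRSF10A by 0.34, IRAK1 by 0.31 and CD44 by 0.23. It was lower in SUM159PT for the interleukin genes IL1B (-2.70), IL1A (-2.08) and IL6 (-2.01) and for the chemokine gene CXCL8 (-1.44). It was also lower for ZC3H12A (-0.79), RBCK1 (-0.57), NFKBIL1 (-0.53), SOD2 (-0.46), TNIP1 (-0.44), BCL3 (-0.30), ALCAM (-0.29) and TNFRSF12A (-0.24).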

How the results depend on the processing

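Within the lines, 309 of 310 recomputed log2 fold changes of the 10 genes stayed on the same side of the threshold; the exception was NFKBIA in SUM159PT by DESeq2 (0.25, adjusted p = 0.0795). The sign changed in 10 of the 310, all of NFKB1 or REL, which were not called, and in 0 of a called gene. With scaling to library totals NFKB1 had 0.016 (MDA-MB-231) and 0.010 (SUM159PT), its difference between lines was -0.0058 and that of RELA -0.0037. The NFKB2 difference, near 0 and not called, was 0.015 by DESeq2, 0.016 with its size factors, 0.0057 with no filter, 0.0011 by limma-voom and 0.081 without SUM159PT sgNTS replicates 2 and 3. Leaving out single libraries gave -0.081 to 0.0075 for NFKB1 and -0.086 to 0.20 for REL in MDA-MB-231, and -0.056 to 0.042 for NFKB1 in SUM159PT. The differences between lines ran from -0.011 to 0.093 for NFKB1, -0.037 to 0.12 for NFKB2 and -0.12 to 0.035 for RELB, and NFKB1 in sgNTS cells from -0.0051 to 0.088. In each of these the sign changed and no call was made. The number of the 10 genes with a lower effect in SUM159PT than in MDA-MB-231, 1 as reported, was 2 with no filter on low counts, 2 with SUM159PT sgNTS replicates 2 and 3 both left out, and 0 to 2 when single libraries were left out; the cause was not tested. TNFAIP3 was the gene added, and NFKBIA the gene lost. In sgNTS cells, RELB was called lower in SUM159PT with no filter (-0.15, edgeR adjusted p = 0.0198) and without SUM159PT sgNTS replicate 3 (-0.19, edgeR adjusted p = 0.0266). Target genes called lower in SUM159PT numbered 1 with library totals and 4 with no filter. With no filter, 4 receptor genes and 2 adhesion genes were called higher in MDA-MB-231 and 4 ligand genes in SUM159PT. The count of negative regulators called lower in SUM159PT was 2 without sgNTS replicate 2 or sgYES1 replicate 1, and 0 without sgNTS replicate 3 or sgYES1 replicate 2. It was also 2 when all 16 libraries were fitted together, with the replicate block, and with sgNTS replicates 2 and 3 both left out. Of the other IkB family genes, 1 was called lower in SUM159PT without sgNTS replicate 2. REL, with 96 to 199 counts per library, had the widest interval of the 10 genes in MDA-MB-231.

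For each library, the deviation of log2 CPM from its group mean was taken gene by gene. These deviations were correlated between the sgNTS and sgYES1 libraries of the same line and replicate number. The correlations were between -0.15 and 0.08 (MDA-MB-231) or between -0.02 and 0.05 (SUM159PT), so the numbers did not pair the samples. With the replicate number as a block, 8 of the 10 genes were called higher in each line and 0 lower, and the difference between lines was called higher for 1 and lower for 1.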
